A study of Mus musculus with 6 samples.

Results

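The genes of the RNA polymerase I and III machinery were followed in regulatory T cells. Members were the protein-coding genes whose Ensembl ID maps to a symbol starting with Polr1, Polr3, Gtf3a or Gtf3c, or to one of 14 further symbols of the same machinery (Cd3eap, Znrd1, Twistnb, Taf1a, Taf1b, Taf1c, Taf1d, Rrn3, Ubtf, Brf1, Brf2, Bdp1, Maf1 and Crcp). This gave 36 genes of the 47069 Ensembl genes listed in both deposited tables. They are 6 subunits of polymerase I, 2 subunits used by both enzymes, 11 subunits of polymerase III, 6 initiation factors of polymerase I, 10 of polymerase III, and the repressor Maf1.

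RNA polymerase I makes only the large ribosomal RNA precursor, and RNA polymerase III makes the small ribosomal RNA, transfer RNAs and other short RNAs. Each enzyme is a complex of many subunits that is brought to its genes by its own initiation factors: UBTF, the TAF1 proteins and RRN3 for polymerase I, and TFIIIA, TFIIIB and TFIIIC for polymerase III. Both are known as growth-controlled enzymes, and activated T cells, which enlarge and divide, make large numbers of ribosomes. Messenger RNA levels of this machinery were measured here, and neither ribosomal RNA nor transfer RNA synthesis was.

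The cells were regulatory T cells of mice that carry a Cre recombinase driven by Foxp3, the factor that defines this lineage. Control mice had 1 floxed and 1 wild-type allele of Noc4l (genotype Foxp3CreNoc4l+/fl, Het), and conditional knockout mice had 2 floxed alleles (Foxp3CreNoc4lfl/fl, cKO); both genotypes thus carry the Cre. CD4+GFP+CD62Lhigh cells were sorted from lymph node and spleen, and Dynabeads activated them over 48 h or 72 h. There was 1 library per genotype at 48 h (Het 1 and cKO 2), and 72 h had 2 of each (Het 1, cKO 2, Het 3 and cKO 4). The Foxp3 driver limits the deletion to cells that express or have expressed it, mouse ages are not given in the labels used here, and 1 passage of the labels gives both genotypes the same allele pair, so that the genotype label of each library was followed. No label says whether libraries came from separate mice, and the p-values given below reflect only how much these libraries vary, which may be technical.

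Values are FPKM, fragments scaled by gene length and by library size, which are per length and so can be compared between genes. Replicates 1 and 2 were deposited in one table and replicates 3 and 4 in another. The tables may have been scaled separately, and genotypes were therefore compared within a table. Summed over the Ensembl genes listed in both, FPKM came to 684617 to 702855 per library in the first table. In the other they came to 624503 and 626402. Where libraries of both tables are ranked below, the listed values are described, and a difference in scaling may enter them. Het 1 and cKO 2 are called the first 72 h pair, Het 3 and cKO 4 the other, and values given in twos are Het first and cKO after it, with 48 h before 72 h. Estimated depth was 16.5 M to 28.8 M fragments (M, mega) per library, and the member with the fewest had about 108 fragments in a library (Polr3d), a counting error of 9.62%. Noc4l, the targeted gene, had the larger value on the cKO side of all 3 pairs: 124 against 99.1 FPKM at 48 h, 81.7 against 48.8 and 58.1 against 40.8 at 72 h. This goes against the direction of the labels, which a gene-level value did not let be checked further, so "cKO" and every direction below mean the libraries labelled so.

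All 7 regulatory T cell markers were present, with Foxp3 at 147 to 336 FPKM and Il2ra at 1142 to 1554. Markers of other cells were uneven, and cKO 2 stood apart by the sums of 3 of 4 lists. The 9 neutrophil and myeloid markers summed to 428 FPKM in cKO 2 at 48 h and 367 in cKO 2 at 72 h, against 21.8 to 75.6 in the other 4 libraries. S100a9 was listed at 0 in 3 of those 4. The 6 B cell markers summed to 85.7 in cKO 2 at 72 h and to 8.81 to 24.5 elsewhere, and the 6 CD8 T and NK cell markers to 222 there and to 12.3 to 96.4 elsewhere. In bulk RNA, fewer cells of a type and less RNA per cell cannot be told apart. The largest values described below rest on the pair of Het 1 and cKO 2 at 72 h, and the part of these other cells in them was not tested. By limma, the genotype estimate at 72 h was positive for 7 of 7 tested myeloid and 6 of 6 B cell markers. It was also positive for 4 of 4 tested CD8 T and NK cell markers and for 7619 of all 12488 genes, and none passed. In the first 72 h pair, each of these markers had the larger value in cKO 2. In the other pair, 1 of the 7 myeloid markers was higher in cKO, 1 was lower and the rest did not differ. The higher one was Ltf, at 21.4 FPKM in Het 3 and 75.3 in cKO 4, where the whole list summed to 75.6. There the B cell list split into 3 higher and 3 lower, and the CD8 T and NK list into 3 higher and 1 lower. Nkg7 was among the higher, at 6.48 FPKM in Het 3 and 89.1 in cKO 4. Its log2 ratio there, 3.59, was larger than that in the first 72 h pair, 2.31. Marker differences were thus not confined to cKO 2. The sum of the 5 erythroid and platelet markers did not single out cKO 2: they summed to 0.946 and 21.6 FPKM at 48 h, 19.9 and 17.6 in the first 72 h pair, and 5.62 and 1.25 in the other. The globin gene Hbb-bs alone did, at 0.0601 and 12.6 FPKM at 48 h, 0.0827 and 9.13 in the first 72 h pair, and 0 and 0.421 in the other. Its genotype estimate at 72 h was 1.87 (limma unadjusted p = 0.0659, adjusted p = 0.312). Hba-a1, another globin gene, had an estimate of -1.87 (limma unadjusted p = 0.00743, adjusted p = 0.167).

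**Figure D1:**
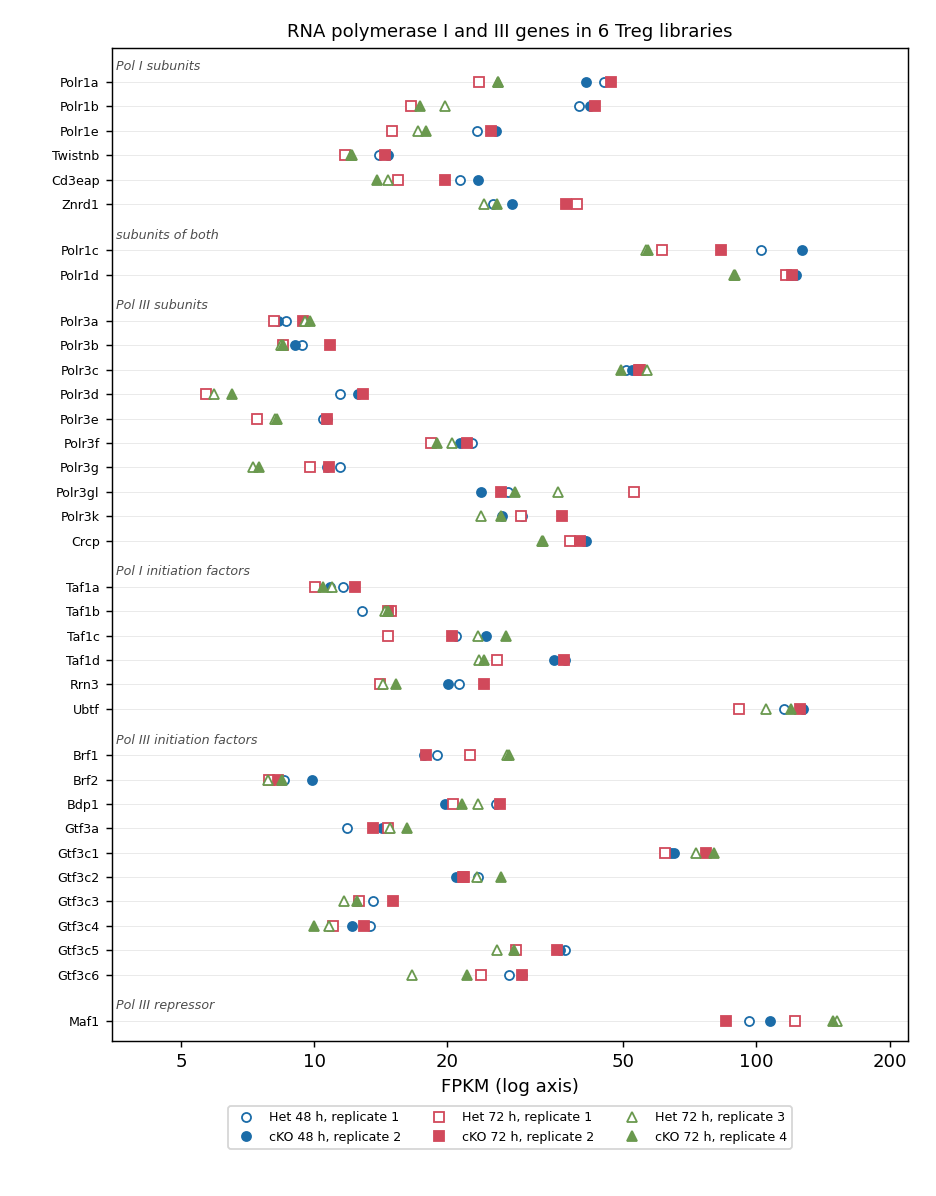
FPKM of 35 members (rows, by role) in each of the 6 libraries on a log axis; open symbols are Het and filled symbols cKO. For Polr1a, Polr1b, Polr3d and Rrn3 the filled square (cKO 2 at 72 h) lies with the circles of 48 h, while the open square and both triangles of 72 h lie lower.

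The members differed widely in level, from a mean over the 6 libraries of 119 FPKM for Maf1 and 114 for Ubtf to under 10 FPKM for several polymerase III genes. Polr1d came next to these highest genes at 110 FPKM, followed by Polr1c at 81.1 and Gtf3c1 at 70.3. The large catalytic subunits of polymerase I, Polr1a and Polr1b, had means of 34.8 and 29.8 FPKM. Those of polymerase III, Polr3a and Polr3b, were at 8.97 and 9.11, near the low end of the list together with Brf2 at 8.49. All 36 members passed the filter of a mean of at least 1 FPKM.

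At 72 h, the values of the 2 pairs are given side by side, and their difference was not tested on its own. A test given further on, which no member passed, sets the other pair against the 48 h and first 72 h pairs together. In Het 1 and cKO 2, 29 of 36 members and 6951 of all 12488 genes were higher in cKO, with a median log2 ratio of 0.29 against 0.06 over all genes (25 members were higher after median centring). In Het 3 and cKO 4, 25 members and 7761 of all genes were higher, with a median of 0.03 against 0.08 over all genes, but 11 members after median centring and 10 after quantile normalization. Ratios were taken as log2(FPKM + 1), which understates changes of low genes. At least 1.5-fold apart in the first pair were 6 members that were higher in cKO (16.7%, against 13.0% of all genes), among them Polr1a, Polr1b, Polr1e, Polr3d and Rrn3, and 1 that was lower, Polr3gl (2.78%, against 10.3% of all genes). The share of members that were higher is thus close to that of all genes. In the pair of Het 3 and cKO 4 no member was 1.5-fold apart, against 9.99% of all genes that were higher and 4.84% that were lower.

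No member passed limma's test of the genotype at 72 h, which used both pairs with the table as a term. Their Benjamini-Hochberg adjusted p ran from 0.264 to 0.996, and 0% of all genes passed. Under an unadjusted p of 0.05 lay 0 members that were higher, against 10.3% of all genes, and 1 that was lower, Polr3gl, against 6.99% of all genes. The median log2 difference was 0.13 over the members and 0.08 over all genes. By sign alone 32 of 36 members, and 7619 of all 12488 genes, were higher in cKO; the count of members becomes 22 when libraries are centred on their medians and 24 after quantile normalization. Higher in both pairs were 21 members (58.3%, against 42.4% of all genes), and lower in both were 3 (8.33%, against 24.6% of all genes).

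**Figure D2:**
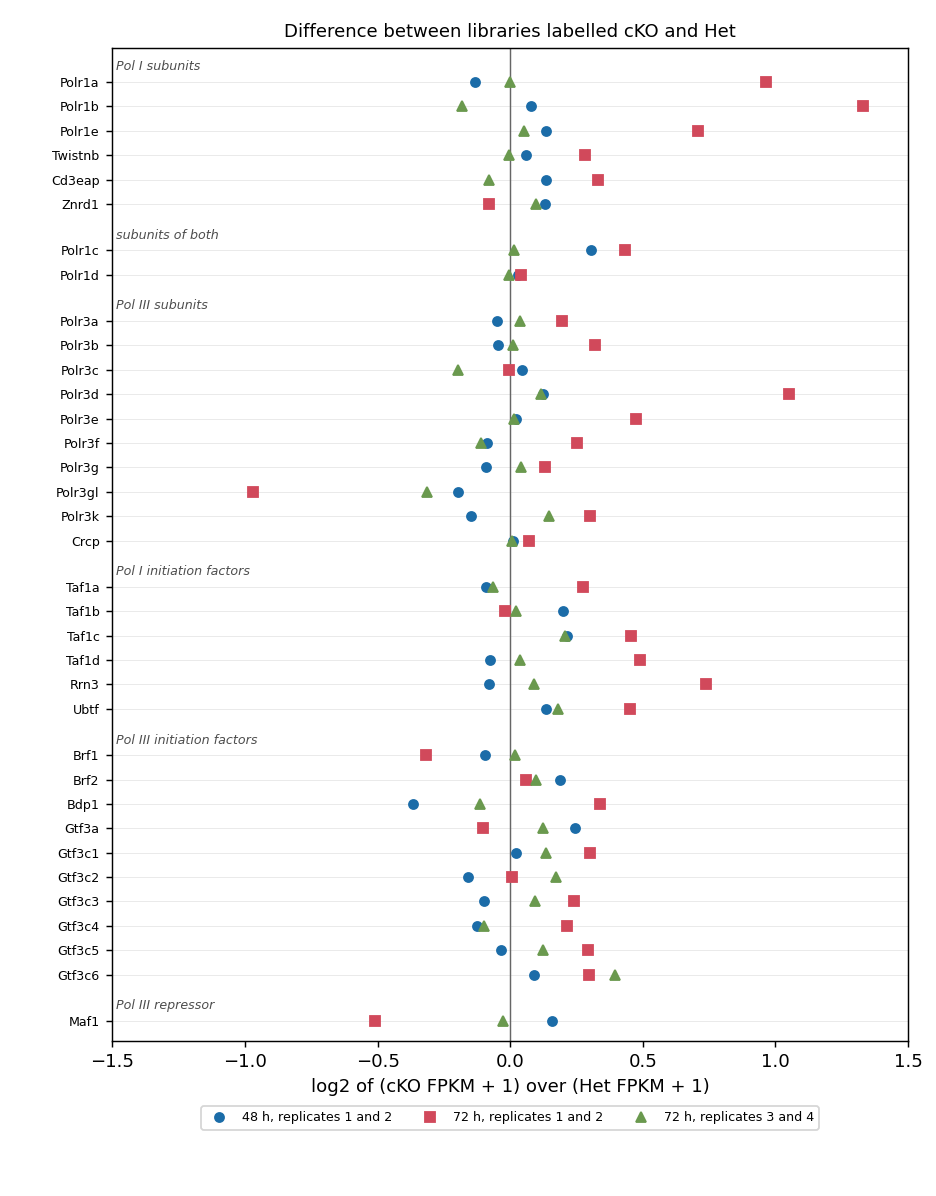
Log2 ratio of cKO to Het, as FPKM + 1, for 35 members in the 3 pairs of libraries; 1 point per pair, so there are no error bars. Squares (72 h, replicates 1 and 2) reach 1.33 for Polr1b and -0.97 for Polr3gl, while circles (48 h) and triangles (72 h, replicates 3 and 4) stay within 1.5-fold for all 35 shown.

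Of the 36 members, the polymerase I subunit gene Polr1b was furthest apart in the first 72 h pair. Polr1b (ENSMUSG00000027395), one of the catalytic subunits, was at 39.7 FPKM (Het 1) and 42.0 FPKM (cKO 2) at 48 h, at 16.6 and 43.1 in the same order at 72 h, and at 19.8 in Het 3 and 17.3 in cKO 4. Within the first table, the level of cKO 2 at 72 h was thus near that of the 48 h libraries and above Het 1 at 72 h. The values listed for Het 3 and cKO 4 were lower too, but come from the other table. Its log2 ratios were 0.08 at 48 h, 1.33 in the first 72 h pair and -0.18 in the other. The limma estimate at 72 h was 0.57 ± 0.40 (SE, 2 libraries per genotype, adjusted p = 0.50).

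Polr1a (ENSMUSG00000049553), the largest subunit, which forms the active centre with POLR1B, was at 45.2 FPKM (Het 1) and 41.1 FPKM (cKO 2) at 48 h, at 23.6 and 47.0 at 72 h, and at 26.1 in both Het 3 and cKO 4. Again cKO 2 at 72 h lay with the 48 h libraries, above Het 1 at 72 h in the same table. It was also above the values listed in the other table. The estimate at 72 h was 0.48 ± 0.27 (SE, limma adjusted p = 0.423). Polr1e (ENSMUSG00000028318), partner in a heterodimer that helps initiation and elongation, was at 23.4 and 25.8 FPKM at 48 h, 15.0 and 25.1 in the first 72 h pair, and 17.2 and 17.9 in Het 3 and cKO 4. Its partner Cd3eap was at 21.4 and 23.5 at 48 h, 15.5 and 19.8, and 14.7 and 13.9. Cd3eap thus had a smaller ratio in the first 72 h pair, 0.33, than Polr1e, 0.71.

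The remaining polymerase I subunits were closer between genotypes. Twistnb, part of the stalk of the enzyme, ranged from 11.7 to 14.7 FPKM over all 6 libraries. Znrd1, a zinc ribbon subunit that acts in cleavage of the nascent RNA, was at 25.4 and 28.0 FPKM at 48 h, 39.3 and 37.2 in the first 72 h pair, and 24.2 and 25.9 in Het 3 and cKO 4. It differed by time within the first table and not by genotype, with an estimate of 0.01 ± 0.13 (SE, limma adjusted p = 0.973) at 72 h. All 6 polymerase I subunits had a positive estimate at 72 h, with a median of 0.26 and no passing gene. This rests on the first pair, where 5 of 6 were higher with a median log2 ratio of 0.52; in Het 3 and cKO 4, 3 were higher and 3 lower, with a median of -0.00067.

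POLR1C and POLR1D pair with each other in the assembly of both enzymes. Polr1c (ENSMUSG00000067148) was at 102 FPKM (Het 1) and 127 FPKM (cKO 2) at 48 h, 61.3 and 83.1 at 72 h, and 56.1 in Het 3 and 56.8 in cKO 4. Both 48 h libraries were above all 72 h libraries. Polr1d, by contrast, was at 120 and 123 at 48 h, 117 and 120 in the first 72 h pair, and 89.5 and 89.2 in the other. Its libraries differed between the tables and hardly within them, with an estimate at 72 h of 0.02 ± 0.12 (SE, limma adjusted p = 0.946).

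**Figure D3:**
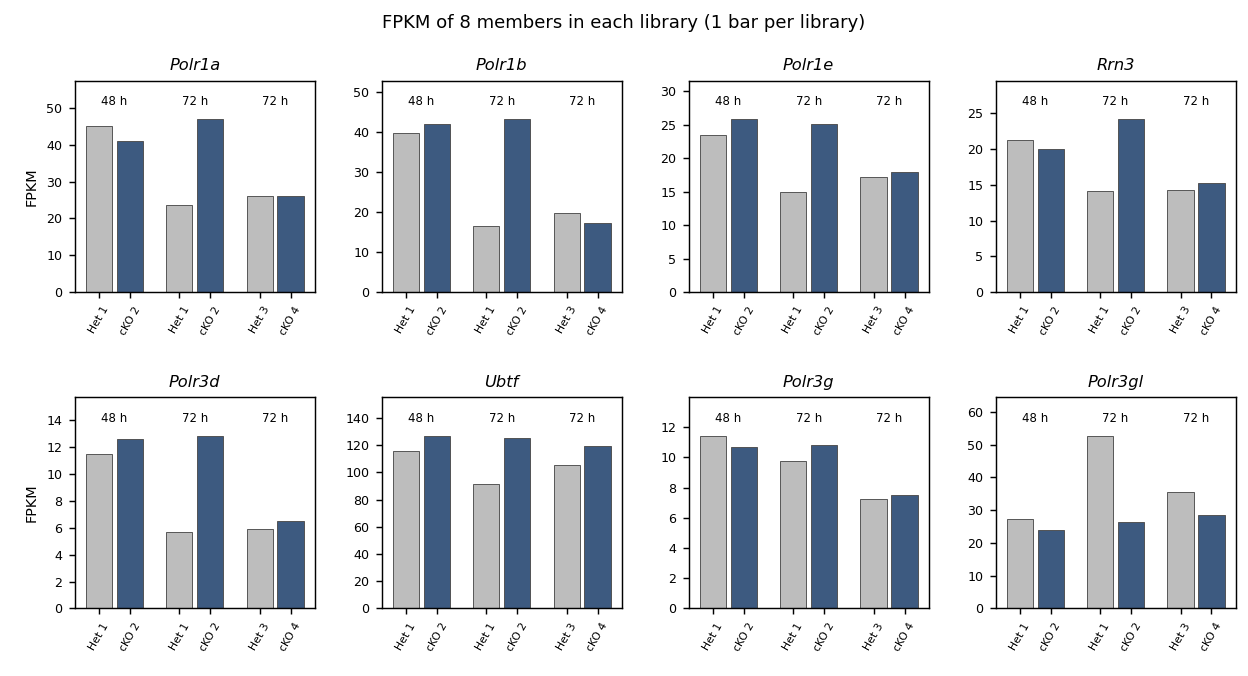
FPKM of 8 members in each library, 1 bar per library from 0, grey for Het and blue for cKO, ordered as 48 h (replicates 1 and 2), 72 h (replicates 1 and 2) and 72 h (replicates 3 and 4). Polr1b is at 16.6 in Het 1 and 43.1 in cKO 2 at 72 h, and Polr3gl at 52.8 and 26.4 in the same libraries.

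Among the initiation factors of polymerase I, Rrn3 (ENSMUSG00000022682) differed most. RRN3 links the polymerase to its promoter factors and is controlled by growth signals. Rrn3 was at 21.2 FPKM (Het 1) and 20.1 FPKM (cKO 2) at 48 h, at 14.1 and 24.2 at 72 h, and at 14.3 in Het 3 and 15.3 in cKO 4. As with Polr1b, cKO 2 at 72 h had the highest value of the 6 libraries. The estimate at 72 h was 0.41 ± 0.21 (SE, limma adjusted p = 0.383).

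Ubtf (ENSMUSG00000020923) encodes the HMG-box protein that coats active ribosomal RNA genes. It was at 116 and 127 FPKM at 48 h, 91.4 and 125 in the first 72 h pair, and 105 and 120 in Het 3 and cKO 4, and so was higher in cKO in each of the 3 pairs. The 72 h estimate was 0.32 ± 0.14 (SE, limma adjusted p = 0.339). Taf1c, a component of the promoter selectivity factor SL1, was likewise higher in cKO in each pair, with 21.0 and 24.5 at 48 h, 14.7 and 20.5 in the first 72 h pair and 23.4 and 27.2 in the other. Its estimate was 0.33 ± 0.14 (SE, limma adjusted p = 0.334) at 72 h. Ubtf and Taf1c thus differed in 1 direction in each pair, by less than 1.5-fold, and neither passed. Other members were also higher in cKO in each of the 3 pairs, among them Polr1c, Polr1e, Polr3d and Gtf3c6. How many of all genes were so was not counted.

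The other SL1 components did not share that pattern. Taf1d, which also hosts small nucleolar RNAs in its gene, was at 36.9 and 34.9 FPKM at 48 h, 25.9 and 36.7 in the first 72 h pair, and 23.6 and 24.3 in Het 3 and cKO 4. Taf1a was at 11.7 and 10.9, 10.1 and 12.4, and 11.0 and 10.5 in the same order. Taf1b stood at 12.9 in Het 1 at 48 h and between 14.5 and 14.9 in the other 5 libraries. For Taf1a and Taf1b the 72 h estimates were 0.10 and 0.00, each within 1 SE (0.16 and 0.13) of 0.

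Promoter sequences are shown for the members that were at least 1.5-fold apart in the first 72 h pair and have an entry in the RefSeq table (build GRCm38.p6), since the libraries of that pair were furthest apart for members of this group. Of the 36 members, 29 matched by symbol, with 38 windows. Each sequence is the 250 bases before the annotated start, 5′ to 3′ on the gene's strand, and capitals mark the E-box CACGTG, the site type bound by MYC and MAX, or the ETS core CCGGAA on either strand (TTCCGG on the other). The windows are chr6:71908803-71909052 (plus strand, Polr1a), chr2:129100746-129100995 (plus, Polr1b), chr4:45018359-45018608 (plus, Polr1e), chr16:13780449-13780698 (plus, Rrn3) and chr3:96594182-96594431 (minus, Polr3gl).
Polr1a: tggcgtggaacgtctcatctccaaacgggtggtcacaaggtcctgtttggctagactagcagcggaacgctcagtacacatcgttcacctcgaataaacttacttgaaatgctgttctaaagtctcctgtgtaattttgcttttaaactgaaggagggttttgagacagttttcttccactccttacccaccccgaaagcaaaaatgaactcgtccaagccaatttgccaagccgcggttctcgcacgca
Polr1b: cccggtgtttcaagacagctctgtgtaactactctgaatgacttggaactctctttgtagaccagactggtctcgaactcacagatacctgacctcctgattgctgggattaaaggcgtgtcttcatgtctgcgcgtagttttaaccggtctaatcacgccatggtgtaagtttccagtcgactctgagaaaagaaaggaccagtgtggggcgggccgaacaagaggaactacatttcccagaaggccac
Polr1e: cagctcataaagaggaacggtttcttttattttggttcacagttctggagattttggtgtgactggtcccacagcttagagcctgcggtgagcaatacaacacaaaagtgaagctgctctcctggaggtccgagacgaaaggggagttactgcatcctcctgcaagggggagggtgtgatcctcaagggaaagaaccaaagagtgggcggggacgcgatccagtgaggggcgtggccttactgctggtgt
Rrn3: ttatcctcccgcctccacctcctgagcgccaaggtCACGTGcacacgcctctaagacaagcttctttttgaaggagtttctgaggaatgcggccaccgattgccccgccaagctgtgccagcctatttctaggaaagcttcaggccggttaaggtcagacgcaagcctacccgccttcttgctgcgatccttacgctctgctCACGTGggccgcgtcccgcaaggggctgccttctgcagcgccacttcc
Polr3gl: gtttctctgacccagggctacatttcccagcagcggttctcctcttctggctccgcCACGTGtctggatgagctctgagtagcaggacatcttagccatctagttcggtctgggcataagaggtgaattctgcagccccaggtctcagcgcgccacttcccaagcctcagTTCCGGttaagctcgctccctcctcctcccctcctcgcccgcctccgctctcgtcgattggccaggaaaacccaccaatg

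The Rrn3 window held 2 E-boxes, whose first bases lie 215 and 48 bases before the start. The Polr3gl window held 1 E-box, 194 bases before the start, and 1 ETS core, 80 bases before it. Neither motif is written in the windows of Polr1a, Polr1b and Polr1e. Over the members' windows, 6 of 38 (15.8%) held an E-box, against 6.0% of all 32851 windows, and 15 of 38 (39.5%) held an ETS core, against 12%. Rrn3, higher in cKO 2 at 72 h, and Polr3gl, lower there, thus each held an E-box. Of members with a window, 4 were at least 1.5-fold higher in cKO 2 at 72 h, and 1 of them held an E-box. Of the other 25, Polr3gl included, 4 did. An ETS core was held by 0 of the 4 and by 13 of the 25. These splits were not tested, and the set of all windows was not limited to genes expressed here. The motifs are matches of letters and do not show binding.

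Within polymerase III, the catalytic subunits were less than 1.5-fold apart in each pair of Het and cKO libraries. Polr3a (ENSMUSG00000025280) was at 8.64 FPKM (Het 1) and 8.30 FPKM (cKO 2) at 48 h, 8.13 and 9.45 at 72 h, and 9.53 in Het 3 and 9.80 in cKO 4. Polr3b was at 9.37 and 9.04, 8.49 and 10.8, and 8.42 and 8.50 in the same order. The 72 h estimates were 0.12 ± 0.14 and 0.17 ± 0.16 (SE, limma adjusted p = 0.700 and 0.614). These large subunits thus differed less in the first 72 h pair (log2 ratios of 0.19 and 0.32) than Polr1a and Polr1b did (0.97 and 1.33), a difference between genes that was not tested.

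Among the smaller subunits, Polr3d differed more. Polr3d (ENSMUSG00000000776), which pairs with POLR3E, was at 11.5 and 12.6 FPKM at 48 h, 5.69 and 12.9 in the first 72 h pair, and 5.93 and 6.52 in Het 3 and cKO 4. Its 72 h estimate of 0.59 ± 0.28 (SE, limma adjusted p = 0.366) was the largest positive one of the 36. Polr3e, its partner, was at 10.5 and 10.7, 7.43 and 10.7, and 8.17 and 8.26, with a ratio of 0.48 in the first 72 h pair. Polr3e was thus closer between Het 1 and cKO 2 at 72 h than Polr3d, whose ratio there was 1.05.

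Polr3gl (ENSMUSG00000028104) had the lowest 72 h estimate of the polymerase III subunits. POLR3G and POLR3GL are alternative forms of 1 subunit, of which POLR3G is known from embryonic and rapidly growing cells and POLR3GL from differentiated ones. Polr3gl was at 27.4 FPKM (Het 1) and 23.8 FPKM (cKO 2) at 48 h, 52.8 and 26.4 at 72 h, and 35.6 in Het 3 and 28.5 in cKO 4. It was lower in cKO in each of the 3 pairs, and both Het libraries of 72 h lay above all other libraries. The estimate at 72 h was -0.64 ± 0.21 (SE, limma unadjusted p = 0.0379, adjusted p = 0.264), the most negative of the 36. Polr3g was at 11.4 and 10.7 at 48 h, 9.78 and 10.8 in the first 72 h pair, and 7.27 and 7.50 in Het 3 and cKO 4, with an estimate of 0.09 ± 0.14 (SE, limma adjusted p = 0.776).

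The ratio of Polr3gl to Polr3g, on the FPKM scale, was 2.40 in Het 1 and 2.23 in cKO 2 at 48 h. At 72 h it was 5.39 in Het 1, 2.44 in cKO 2, 4.90 in Het 3 and 3.80 in cKO 4. Polr3gl was thus the more abundant form in all 6 libraries, and the ratio of cKO 2 at 72 h was again that of 48 h. In the plot of 8 members these genes stand side by side.

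The other polymerase III subunits were close between genotypes. Polr3c and Polr3f form a subcomplex with POLR3G or POLR3GL that acts in initiation. Polr3c was between 49.3 and 56.7 FPKM and Polr3f between 18.4 and 22.8 in all libraries. Crcp, part of the stalk, was between 32.8 and 41.1. Polr3k, the counterpart of Znrd1 in RNA cleavage, was at 29.6 and 26.6 at 48 h, 29.3 and 36.4 in the first 72 h pair, and 23.8 and 26.5 in Het 3 and cKO 4, with an estimate of 0.22 ± 0.13 (SE, limma adjusted p = 0.434). Of the 11 polymerase III subunits, 9 had a positive and 2 (Polr3gl and Polr3c) a negative 72 h estimate, with a median of 0.12.

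The 10 initiation factors of polymerase III had a median 72 h estimate of 0.10, with 9 positive and none that passed. Brf1 (ENSMUSG00000011158), the TFIIIB subunit of transfer RNA genes, was at 19.0 and 17.7 FPKM at 48 h, 22.6 and 17.9 in the first 72 h pair, and 27.2 and 27.6 in Het 3 and cKO 4. Brf2, its relative at genes with an upstream promoter, was at 8.54 and 9.88, 7.91 and 8.30, and 7.85 and 8.48. Bdp1, which completes TFIIIB, was at 25.7 and 19.7, 20.6 and 26.3, and 23.5 and 21.6. The direction of the Bdp1 difference thus was not the same in the 3 pairs. For these factors the 72 h estimates were -0.15 ± 0.15, 0.08 ± 0.14 and 0.11 ± 0.17 (SE, limma adjusted p = 0.630, 0.791 and 0.753).

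TFIIIA, encoded by Gtf3a, binds the genes of the small ribosomal RNA. Gtf3a was at 11.9 and 14.3 FPKM at 48 h, 14.7 and 13.6 in the first 72 h pair, and 14.8 and 16.3 in Het 3 and cKO 4. It shares 59.1% of its exonic bases with Mtif3 on the opposite strand (5.27 to 7.43 FPKM), and reads of the 2 genes cannot be told apart without a stated strand setting. Gtf3c1 (ENSMUSG00000032777), the largest subunit of TFIIIC, was at 64.2 and 65.3, 62.2 and 76.9, and 72.9 and 80.2. It was higher in cKO in each pair, but at 48 h by a log2 ratio of only 0.02. Its estimate of 0.22 ± 0.13 (SE, limma adjusted p = 0.435) did not pass.

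The other TFIIIC genes ranged from 11.7 to 15.1 FPKM for Gtf3c3, 10.0 to 13.4 for Gtf3c4 and 25.9 to 36.9 for Gtf3c5. Gtf3c2 was at 23.5 and 20.9 at 48 h, 21.7 and 21.8 in the first 72 h pair, and 23.3 and 26.4 in Het 3 and cKO 4, and it shares 38.9% of its exonic bases with the predicted gene Gm29609, listed at no more than 0.391 FPKM. Gtf3c6 was at 27.6 and 29.5 at 48 h, 23.8 and 29.5 in the first 72 h pair, and 16.6 and 22.2 in Het 3 and cKO 4. Its log2 ratio of 0.40 in the pair of Het 3 and cKO 4 was the highest of the 36 there, and its estimate was 0.35 ± 0.13 (SE, limma adjusted p = 0.298).

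Maf1 (ENSMUSG00000022553) represses polymerase III and is itself restrained by mTOR signalling. Maf1 was at 96.2 FPKM (Het 1) and 107 FPKM (cKO 2) at 48 h, 122 and 85.4 at 72 h, and 152 in Het 3 and 149 in cKO 4. The library of cKO 2 at 72 h was the lowest of the 6, below both 48 h libraries. The log2 ratios were 0.16, -0.51 and -0.03, and the 72 h estimate was -0.27 ± 0.17 (SE, limma adjusted p = 0.465). Maf1 and Polr3gl were thus the members furthest below Het in the first 72 h pair.

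At 48 h, with 1 library per genotype and no test, the machinery was level. No member was 1.5-fold apart, against 3.14% of all 12064 genes that were higher and 1.87% that were lower in cKO. The highest log2 ratio was 0.31 (Polr1c) and the lowest -0.37 (Bdp1), and 20 members were higher and 16 lower (16 and 20 after rescaling to TPM).

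Over both times, a model with additive terms for genotype, time and table, fitted to all 6 libraries, called no member, with limma adjusted p from 0.362 to 0.992, and 0% of all 12394 genes passed. Under an unadjusted p of 0.05 lay 1 member that was higher, Taf1c (0.29 ± 0.11, SE, adjusted p = 0.372), against 8.04% of all genes, and 1 that was lower, Polr3gl (-0.49 ± 0.18, SE, adjusted p = 0.362), against 5.28% of all genes. By sign, 30 members were higher and 6 lower (7304 of all genes were higher), or 22 and 14 after median centring. Polr3d stood at 0.43 ± 0.22 and Polr1b at 0.41 ± 0.30 (SE). On the negative side, Brf1 and Maf1 stood at -0.13 each (SE 0.12 and 0.15). Without Het 1 at 72 h, or without cKO 2 at 72 h, the Polr1b estimate was -0.051 and that of Maf1 0.066. Het 1 and cKO 2 enter the fits of all 6 libraries at both 48 h and 72 h. These fits took the libraries of a replicate number as independent, which was not tested. If they share a source, the SE and p of the genotype term are not those of separate replicates.

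Whether the genotype difference itself varied was tested with interaction terms over all 6 libraries, each leaving 1 residual degree of freedom. Between 48 h and 72 h no member differed (limma adjusted p from 0.856 to 0.996, with 0% of all genes passing and 0 members against 5.71% of all genes under an unadjusted p of 0.05). The largest terms were 0.62 ± 0.48 for Polr1a, 0.50 ± 0.70 for Polr1b and 0.49 ± 0.36 for Rrn3, and the lowest -0.45 ± 0.36 for Polr3gl, -0.42 ± 0.30 for Maf1 and -0.24 ± 0.24 for Gtf3a (SE). Between the pairs of replicates 1 and 2 and the pair of 3 and 4, likewise, no member differed, with a limma adjusted p that rounds to 1 for each and 0% of all genes passing. Here 0 members against 2.61% of all genes lay under an unadjusted p of 0.05. Polr1b stood at -0.88 ± 0.57, Polr3d at -0.47 ± 0.48, Polr3gl at 0.27 ± 0.43, Gtf3c2 at 0.25 ± 0.32 and Brf1 at 0.22 ± 0.32 (SE). This term sets the pair of 3 and 4 against the mean of the 48 h and 72 h pairs of replicates 1 and 2. The difference between the 2 pairs at 72 h was therefore not tested on its own, for Polr1b or any other member. With SE of this size, the Polr1b term could not be separated from the spread between libraries.

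From 48 h to 72 h, most members were lower in the Het libraries of the first table and near level in its cKO libraries. In Het 1, 29 of 36 members and 6533 of all 12250 genes were lower at 72 h, with a median log2 ratio of -0.21 against -0.03 over all genes. In cKO 2, 22 members were higher and 14 lower (6705 of all genes were higher), with a median of 0.02 against 0.03 over all genes; centred on library medians the count was 13 higher and 23 lower, after quantile normalization 18 and 18, and after rescaling to TPM 27 and 9. At least 1.5-fold lower in Het 1 were 6 members (16.7%, against 10.1% of all genes), and 2 were at least 1.5-fold higher, Polr3gl and Znrd1 (5.56%, against 10.8%). In cKO 2 only Polr1c was 1.5-fold lower (2.78%, against 3.32% of all genes), and none was 1.5-fold higher, against 6.91%. There is 1 library per genotype and time here, so the difference between these changes within the first table was not tested on its own. The interaction between genotype and time given above, which did not pass, also takes in the other 72 h pair. The genotype difference at 72 h and the time difference share the 72 h libraries of Het 1 and cKO 2.

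**Figure D4:**
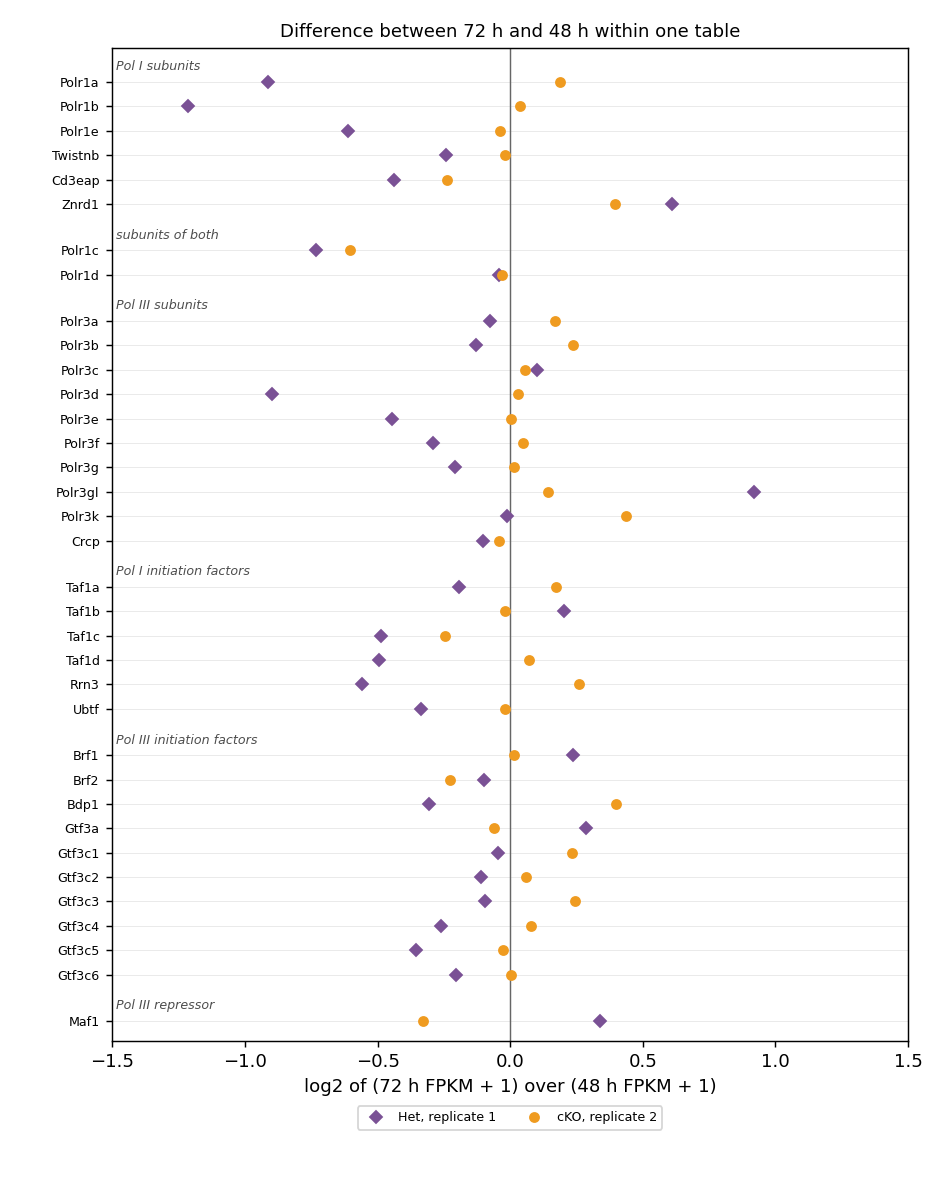
Log2 ratio of 72 h to 48 h, as FPKM + 1, for 35 members in Het replicate 1 (diamonds) and cKO replicate 2 (circles), 1 point per pair of libraries and no error bars. Polr1b is at -1.21 in Het and 0.04 in cKO, Polr3gl at 0.92 and 0.14, and Polr1c at -0.73 and -0.60.

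Over both genotypes, the time term called no member (limma adjusted p from 0.310 to 0.991), and 3 genes, 0.0242% of all 12394, passed. Among these was the CD8 T cell marker Cd8a, at 0.466 FPKM (Het 1) and 0.992 FPKM (cKO 2) at 48 h, 20.3 and 39.0 at 72 h, and 1.01 and 2.24 in Het 3 and cKO 4; its part in the time differences was not tested. Polr1c stood at -0.67 ± 0.15 (SE, unadjusted p = 0.00534, adjusted p = 0.310), lower at 72 h in both genotypes of that table. Znrd1 stood at 0.50 ± 0.13 (SE, adjusted p = 0.362), higher in both. Under an unadjusted limma p of 0.05 lay 1 member that was higher at 72 h, Znrd1, against 6.45% of all genes, and 2 that were lower, Polr1c and Taf1c, against 4.63%. Polr1b stood at -0.59 ± 0.37, Polr3gl at 0.53 ± 0.22 and Polr3k at 0.21 ± 0.16 (SE), with adjusted p of 0.459 to 0.618. Without the library of cKO 2 at 72 h, 12 members lay under an unadjusted p of 0.05 (10 lower and 2 higher), against 19.7% of all genes, and Polr1b stood at -1.28. Without Het 1 at 72 h, Polr1b stood at 0.10.

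Genes that work beside the machinery were set next to it by list, and no member of these lists passed an adjusted p of 0.05 for the genotype at 72 h or for time. The 5 subunits that polymerases I and III share with polymerase II had a median of 0.27 for the genotype at 72 h. All 5 of 5 were higher, against 7619 of all 12488 genes, led by Polr2e at 0.31 ± 0.14 and Polr2f at 0.30 ± 0.14 (SE). The 7 subunits found only in polymerase II had a median of 0.05, with Polr2g at 0.42 ± 0.13 and Polr2i at 0.31 ± 0.13. For time, these lists stood at -0.27 and -0.17, where Polr2e was at -0.43 ± 0.13, Polr2f at -0.39 ± 0.13, Polr2j at -0.54 ± 0.15 and Polr2d at -0.40 ± 0.15. By sign, 3 of the 5 shared and 7 of the 7 unshared subunits were lower at 72 h, against 6166 of all 12394 genes. In the 2 pairs at 72 h, the medians for genotype were 0.42 and 0.17 for the shared subunits, and 0.22 and -0.02 for the unshared.

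Regulators of polymerase I and of ribosomal DNA chromatin had a median of 0.34 for the genotype at 72 h, with 0.47 in Het 1 and cKO 2 and 0.11 in Het 3 and cKO 4. By sign, 12 of 16 were higher, against 7619 of all 12488 genes. Npm1, a nucleolar chaperone, was at 1296 FPKM (Het 1) and 1308 FPKM (cKO 2) at 48 h, 580 and 1348 at 72 h, and 419 in Het 3 and 469 in cKO 4. Nolc1, a nucleolar phosphoprotein, was at 58.0 and 60.4, 28.5 and 60.7, and 26.1 and 25.9. Npm1 and Nolc1 were chosen after their values were seen, and so lend no support to the values of the members. Their listed values were highest in cKO 2 among the 72 h libraries, at a level near that of 48 h. In the first 72 h pair, 13 of the 16 genes of the list were higher in cKO, against 6951 of all 12488 genes. Baz2a, Sirt7 and Kdm2a were lower there, with log2 ratios of -0.16, -0.25 and -0.34. Myc, a known activator of the machinery, was highest in Het 3 among the 72 h libraries, with 158 and 172 at 48 h, 131 and 154, and 160 and 94.3. By the rule for named genes, Cavin1 stood at 1.10 ± 0.21 and Top1 at 0.48 ± 0.16 for genotype, and Cavin1 at -1.15 ± 0.25 and Fbl at -0.52 ± 0.19 for time (SE, limma adjusted p of 0.163 to 0.438).

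Regulators of polymerase III and the activating complex of small nuclear RNA genes had a median of 0.17 for the genotype at 72 h (12 of 16 higher), with 0.23 and 0.15 in the 2 pairs, and -0.02 for time. Snapc5 stood at 0.50 ± 0.13 and Mtor at 0.38 ± 0.13 for genotype, and the tumour suppressor gene Trp53 at -0.56 ± 0.17 and Snapc3 at 0.43 ± 0.15 for time (SE). Genes that process polymerase III transcripts had a median of 0.25 for genotype (16 of 18 tested higher) and -0.27 for time (17 of 18 lower). Of all genes, 7619 of 12488 were higher for genotype and 6166 of 12394 lower for time. The counts by list were not repeated after median centring. Among the processing genes, Trnt1, which adds the CCA end to transfer RNAs, stood at 0.55 ± 0.17 (SE) for genotype. The ribonuclease P subunits Pop5 and Rpp14 stood at -0.39 ± 0.13 and -0.59 ± 0.21 for time. In the pair of Het 3 and cKO 4, the median of these processing genes was 0.03, against 0.45 in Het 1 and cKO 2.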

How the data were processed

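RNA sequencing values of 6 libraries were taken as FPKM, as deposited by the authors in 2 tables. Per the submitters' processing notes, Bowtie2 2.2.3, TopHat2 2.0.12 and HTSeq 0.6.1 were used with build mm9; which tool did which step, and whether counting used strand, is not given in the sources used here. Per the labels' protocols, libraries were made with a SMART-Seq v4 low-input kit. Of 47347 shared rows, 278 with a running number were left out, and 46488 of 47069 Ensembl IDs matched a symbol.

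Values were analysed as log2(FPKM + 1) for genes whose mean reached 1 FPKM. Linear models across all genes came from limma 3.58.1 (R 4.3.3), with a variance trend and Benjamini-Hochberg adjustment. The genotype at 72 h had 1 residual degree of freedom, and the fit of all 6 libraries had 2. The fits were tested on simulated data. FPKM hold no counts, and depth was estimated: with mean annotated transcript lengths, 86.4% to 87.5% of low values lay within 0.02 of a whole fragment number, against 4.13% to 4.72% with scrambled lengths. Fragment numbers served only for counting error.

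Members and lists were chosen with earlier results of these data known. Named were 20 members fixed by role, and the 3 highest and 3 lowest estimates of each test; from each other list, the 2 genes with the smallest p. Alternatives covered pseudocounts (0.1 and 5), filters, scaling, the table term, the variance trend, the replicate block and leaving out libraries. Included in all counts, 1 member and 1 gene of another list are not reported by name here. Of the members, 11 overlap exons of other genes. Other steps used pandas 2.3.3, matplotlib 3.10.9 and numpy 2.4.6 under Python 3.11.15.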

Additional observations from a re-analysis of the deposited data

How the results depend on the processing

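No member passed an adjusted p of 0.05 under any alternative run for the genotype, time or interaction terms. Over all genes, the genotype at 72 h called 8 with no filter on low values, and the genotype over both times called 0 to 7 when 1 library was left out. The time term called 3 genes, but 1 with a pseudocount of 5 and 0 with no filter, with no table term or with the replicate block, and 0 to 4 when 1 library was left out. The interaction between genotype and table called 0 genes, but 7 with a mean of at least 5 FPKM, 9 after TPM rescaling, 8 after quantile normalization and 4 after median centring. In these cases the cause was not tested. The replicate numbers 1 and 2 coincide with genotype in the table that holds both times, so the replicate block could not be checked as a pairing.

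Of the estimates named for single members, those of Polr1b and Maf1 over both times turned to -0.051 and 0.066 without Het 1 or cKO 2 at 72 h, and the Polr1b time estimate turned to 0.10 without Het 1 at 72 h. At 72 h, the estimates of Polr1b and Brf1 likewise turned, to -0.18 and 0.019, without either of those libraries, and without Het 3 or cKO 4 they were 1.33 and -0.32. With 1 library left out, the range over both times was -0.051 to 0.70 for Polr1b and -0.27 to 0.066 for Maf1, and for the time estimate of Polr1b -1.28 to 0.10. The median genotype difference of the members at 72 h was 0.03 to 0.29 when 1 library was left out and its pair was dropped with it. Over both times it was 0.01 to 0.13, and for time -0.18 to 0.02. The 8 members at least 1.5-fold apart by time in Het 1 became 5 with a pseudocount of 5. The 1 in cKO 2 became 0 with a pseudocount of 5, after TPM rescaling and after quantile normalization. Centred on library medians, 11 members rather than 25 were higher in cKO 4 than in Het 3, and after quantile normalization 10. With 1 or 2 residual degrees of freedom, a missed threshold does not show that members did not differ.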
